A study of Homo sapiens with 20 samples.

Results

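The genes described here are 49 genes of the mitotic machinery, namely the cyclins and kinases that drive mitosis, the spindle checkpoint, the centromere and kinetochore, the apparatus of anaphase and cytokinesis, and FOXM1, MYBL2, TOP2A and MKI67. They were chosen by symbol, and each of the 49 was found once among the 20314 genes of the deposited count table. The cells were U2-OS, a line derived from a human osteosarcoma, and RNA-seq was done on 4 groups of 5 libraries. One group was untreated, a pair of groups received 20 Gy of ionising radiation and were harvested 1.5 h (given in the labels as 90 minutes) or 7 days post-IR, and in the last one NFKBIA, the gene of the NF-κB inhibitor IκBα, was knocked down by shRNA without irradiation. All cells were harvested at the same time, so the irradiated groups received their dose on different days. All groups share the same cell line and the same medium with 10 percent serum. According to the methods, knockdown lines were made with lentiviral vectors, clonal selection with puromycin and doxycycline induction, and cells with a scrambled shRNA, also given doxycycline, are named there as controls. No library here is labelled as such a control, and the labels of untreated cells name no vector or drug. Whether the untreated libraries carried either is not stated, and a part of vector, clone or drug in the knockdown comparison was not tested.

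Entry into mitosis is driven by CDK1 bound to cyclin B, which CDC25 phosphatases activate and which CDK inhibitors and WEE1 restrain. The kinases PLK1 and Aurora A build the spindle poles, and Aurora B corrects faulty attachments of chromosomes to the spindle at the kinetochore. Unattached kinetochores feed the spindle checkpoint, which holds back CDC20 and the anaphase-promoting complex until all chromosomes are attached. Most of these genes are transcribed late in the cell cycle, in G2 and mitosis, under FOXM1 and B-MYB, and are repressed by the DREAM complex in cells that have left the cycle after p53 has raised the CDK inhibitor p21. Their RNA is therefore widely used as a readout of cycling cells. In bulk RNA, fewer cells in G2 and mitosis and less RNA in each such cell cannot be told apart.

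The promoters of this gene class are known for a short element called CHR (cell cycle genes homology region), with the core letters TTTGAA or TTCGAA, which the MuvB core of DREAM contacts, often placed downstream of CCAAT boxes, the letters bound by NF-Y. RefSeq promoter windows on GRCh38.p14, from 250 bases before to 50 bases after the transcription start, were at hand for 41 of the 49 genes. The other genes were AURKA, BIRC5, BUB3, TTK, CENPM, UBE2C, TPX2 and FOXM1. To show how these letters lie in genes with different changes in the data below, from CDK1 and its partners CCNB2 and CDC25C to genes called at 1.5 h and genes not called lower, the 130 bases before the start are given 5′ to 3′ for 10 genes, with both CHR spellings and every CCAAT box, on either strand, in capitals. Where a CHR core runs into an inverted CCAAT box, they share 1 letter.
CCNB2 (chr15:59105016-59105145, plus strand): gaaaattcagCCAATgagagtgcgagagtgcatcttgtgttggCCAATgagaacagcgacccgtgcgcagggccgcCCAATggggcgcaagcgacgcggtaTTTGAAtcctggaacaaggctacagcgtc
PLK1 (chr16:23678759-23678888, plus strand): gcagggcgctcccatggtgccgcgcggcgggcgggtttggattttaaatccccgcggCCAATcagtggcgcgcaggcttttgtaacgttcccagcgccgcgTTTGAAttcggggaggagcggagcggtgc
MKI67 (chr10:128126424-128126553, minus strand): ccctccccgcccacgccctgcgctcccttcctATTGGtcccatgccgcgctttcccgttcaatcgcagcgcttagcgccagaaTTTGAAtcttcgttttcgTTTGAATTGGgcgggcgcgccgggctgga
CDC25C (chr5:138331805-138331934, minus strand): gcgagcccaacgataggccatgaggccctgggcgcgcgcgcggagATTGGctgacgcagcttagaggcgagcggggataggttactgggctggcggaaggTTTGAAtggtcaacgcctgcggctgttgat
CDK1 (chr10:60778348-60778477, plus strand): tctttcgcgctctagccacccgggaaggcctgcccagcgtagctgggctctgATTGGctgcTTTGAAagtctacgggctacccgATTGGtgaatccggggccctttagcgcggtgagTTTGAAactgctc
CENPA (chr2:26785926-26786055, plus strand): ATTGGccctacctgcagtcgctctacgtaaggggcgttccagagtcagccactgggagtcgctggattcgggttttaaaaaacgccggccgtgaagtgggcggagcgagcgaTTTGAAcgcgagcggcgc
CDCA8 (chr1:37692386-37692515, plus strand): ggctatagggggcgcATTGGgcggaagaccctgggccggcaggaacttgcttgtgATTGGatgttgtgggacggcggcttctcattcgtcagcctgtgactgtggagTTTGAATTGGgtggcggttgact
CDC20 (chr1:43358851-43358980, plus strand): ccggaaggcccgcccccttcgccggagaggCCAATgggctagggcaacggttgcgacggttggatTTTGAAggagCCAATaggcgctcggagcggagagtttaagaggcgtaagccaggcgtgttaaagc
HMMR (chr5:163460502-163460631, plus strand): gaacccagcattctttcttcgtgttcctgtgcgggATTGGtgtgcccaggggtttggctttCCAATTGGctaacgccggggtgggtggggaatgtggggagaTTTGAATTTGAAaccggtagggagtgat
CENPK (chr5:65563169-65563298, minus strand): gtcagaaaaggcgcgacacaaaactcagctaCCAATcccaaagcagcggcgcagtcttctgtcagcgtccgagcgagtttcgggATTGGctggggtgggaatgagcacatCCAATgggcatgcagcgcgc

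CCNB2, PLK1 and CDC25C show the usual layout, with CCAAT upstream and TTTGAA near the start. MKI67, CDK1 and HMMR each hold TTTGAA at 2 places in the printed bases, and CENPK holds CCAAT but neither CHR spelling. TTTGAA or TTCGAA, searched on both strands, was present in 30 of the 41 windows, or 73.2%, against 16.4% of all 35116 RefSeq windows and 12.3% of the 16076 windows of genes tested here. CCAAT was present in 31 windows, or 75.6%, against 34.6% of all windows. Both were found together in 24 windows, or 58.5%, against 6.38%. TTTGAA on the strand of the gene began 10 to 31 bases before the start in 14 genes, from INCENP at 10 to ESPL1 at 31. These positions were not counted over all windows. The 11 genes with neither CHR spelling in the window were CCNA2, CCNB1, CDC25B, NEK2, AURKB, CENPE, CENPI, CENPK, SPC24, PTTG1 and MYBL2. These are matches of letters, with 1 window per gene for the 41 genes. The 16076 windows are more than the 14992 genes tested, so that background holds several windows for some genes.

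**Figure D1:**
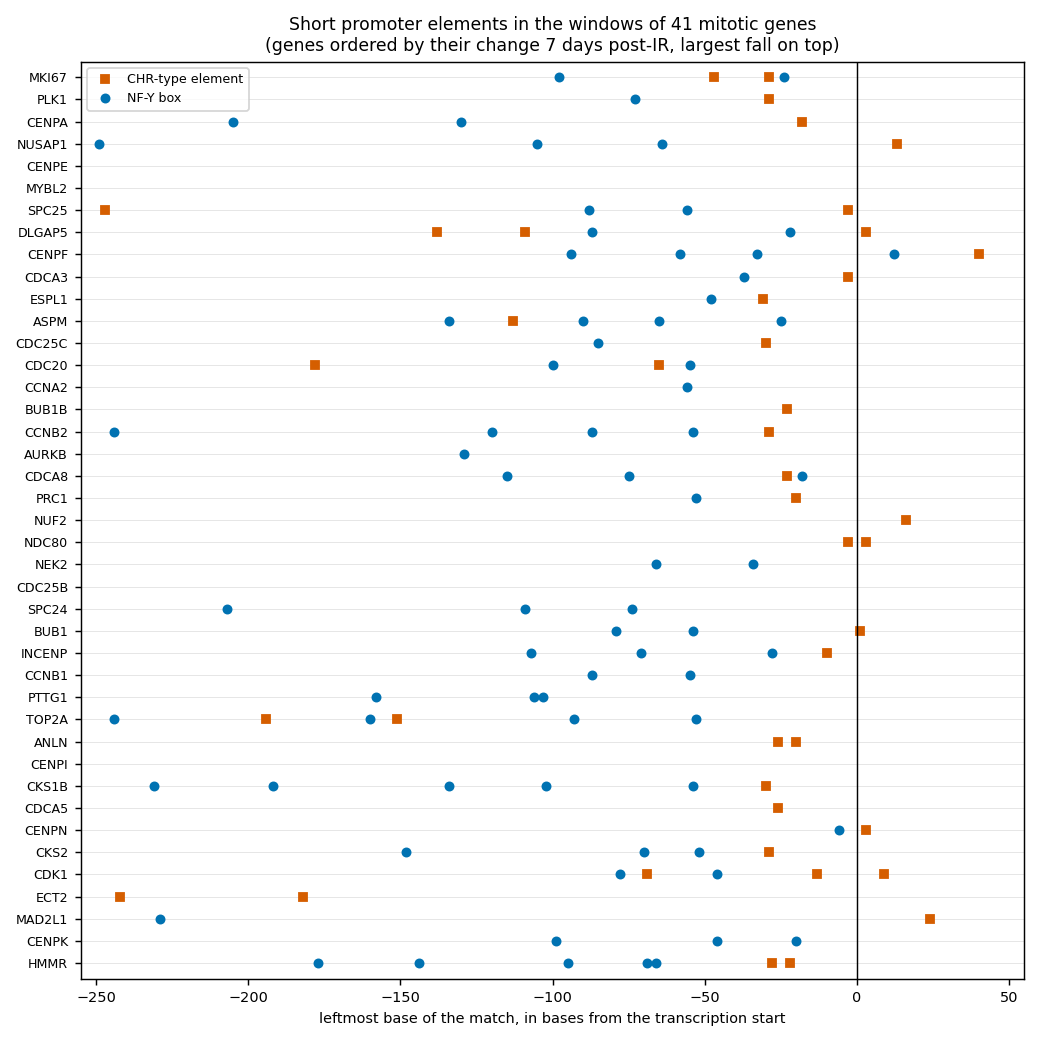
Position of the CHR letters (squares) and CCAAT letters (circles, NF-Y box) in the promoter windows of 41 mitotic genes, 1 row per gene, with the leftmost base of each match given in bases from the transcription start. Many squares lie within 31 bases upstream of the start, and most circles lie further upstream.

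Reads counted on genes came to between 22535659 and 40390961 per library, and all 49 genes passed the filter on low counts, with 14992 genes tested in all. NFKBIA, the targeted gene, had 31.3 ± 7.25 CPM in the untreated libraries and 12.1 ± 0.667 CPM in the knockdown (SD, n = 5), where CPM scales the counts to library size after TMM normalization. Of the osteoblast markers, SPARC and COL1A1 were abundant, with 2137 and 1974 CPM in untreated cells, and COL1A2 and BGLAP were near 0. Of the 7 osteoblast markers tested 1 (14.3%) was lower and 2 (28.6%) were higher at 7 days, against 14.4% and 16.7% of all genes, 1 was lower at 1.5 h (14.3%, all genes 1.57%) and 2 were lower in the knockdown (28.6%, all genes 7.53%). The summed level of the 8 osteoblast markers was 4005 to 4751 CPM in untreated libraries, 3677 to 3986 at 1.5 h, 2756 to 3179 at 7 days and 2804 to 2970 in the knockdown, below every untreated library in all 3 groups. The 7 markers of blood, epithelial, endothelial and pigment cells found in the table summed to 7.19 to 8.63 CPM per untreated library, 7.03 to 9.34 at 1.5 h, 5.35 to 6.73 at 7 days and 4.07 to 5.25 in the knockdown, with TYR and CD3E at or near 0. Of the 5 that passed the filter 3 were lower at 7 days, none at 1.5 h and 2 in the knockdown, against 14.4% and 7.53% of all genes at 7 days and in the knockdown. The part of both lists in the results was not tested. Untreated replicates 4 and 5 stood apart from the rest. The SD of their log2 deviations from the group mean over all genes was 0.385 and 0.561, against 0.156 to 0.286 in the other 18 libraries. In replicate 4 the shortest genes were shifted up (median log2 deviation 0.27) and the longest down (-0.29), and in replicate 5 the reverse held (-0.13 and 0.16). All comparisons with the untreated group share these libraries, so values are also given without both where they matter. The sequencing lane given in the sample descriptions was shared by untreated replicate 5 and 3 libraries at 1.5 h, but no lane held both untreated and 7 days or knockdown libraries.

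At 7 days post-IR the mitotic genes were lower almost throughout. Of the 49 genes, 46 (93.9%) were called lower than in untreated cells and none higher, where 14.4% of all genes tested were lower and 16.7% higher. A call required an adjusted p under 0.05 in edgeR's quasi-likelihood test and a log2 fold change over 0.5 in size. The median log2 fold change of the 49 was -1.09, or 2.13-fold lower, against 0.01 over all genes. At an unadjusted p under 0.05 without the fold threshold no gene was higher either, and DESeq2 called 46 lower and 0 higher. The changes ran from -1.74 for MKI67 to -0.00 for BUB3. The place of MKI67 rested on untreated replicate 5, without which its change was -1.34 and that of PLK1, then the largest, -1.48. HMMR, with -0.26, and CENPK, with -0.37, had adjusted p values of 8.85e-05 and 3.11e-06 but changes under the size required. The 7 days libraries lay below all untreated ones for 47 genes (lower without overlap for 20.4% of all genes), for which an exact two-sided permutation test gave p = 0.00794, the smallest that 5 against 5 libraries allow. The other 2 genes were BUB3 and CKS1B.

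At 1.5 h post-IR 5 genes (10.2%) were called lower and none higher, where 1.57% of all genes were lower and 2.08% higher. They were PLK1, AURKA, CDCA8, CENPA and CDCA3. The median change of the 49 genes was -0.25 (all genes -0.03), so the typical gene was 1.19-fold lower. Without the fold threshold 26 genes passed the adjusted p on the lower side and 1 on the higher, CENPK with 0.21. By that rule 1534 of all 14992 genes tested were lower and 1657 higher. At an unadjusted p under 0.05 the numbers were 32 lower and 4 higher, and DESeq2 called 5 lower and 0 higher. All-gene counts under these rules are not given here. Untreated replicates 1 to 4 were the only libraries of lane 2. Comparisons with untreated cells in a fit with lane as a factor, or within lane 3 alone, therefore rest on untreated replicate 5. With lane as a factor CKS1B (0.98) and MAD2L1 (0.69) had the largest rises at 1.5 h. In that fit, 10 of the 49 changes turned sign at 1.5 h, 2 at 7 days and 12 in the knockdown. The 1.5 h libraries lay below all untreated ones for 19 genes (4.85% of all genes).

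In the NFKBIA knockdown 13 genes (26.5%) were called lower and none higher, where 7.53% of all genes were lower and 5.18% higher, with a median change of -0.36 (all genes -0.01). They were MKI67, MYBL2, FOXM1, CDC25B, PLK1, NUSAP1, BIRC5, INCENP, TPX2, ASPM, CENPM, SPC24 and CENPE. On the adjusted p alone 42 were lower and 1 was higher, HMMR with 0.16. By that rule 3157 of all 14992 genes tested were lower and 2921 higher. DESeq2 called 14 lower and 0 higher, and at an unadjusted p under 0.05 there were 44 lower and 1 higher. All-gene counts under these rules are not given here. The knockdown libraries lay below all untreated ones for 26 genes (11.8% of all genes). The count of calls was 8 when libraries were scaled by their size alone. Without untreated replicates 4 and 5, the counts of genes called lower were 46 at 7 days, 4 at 1.5 h and 11 in the knockdown.

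**Figure D2:**
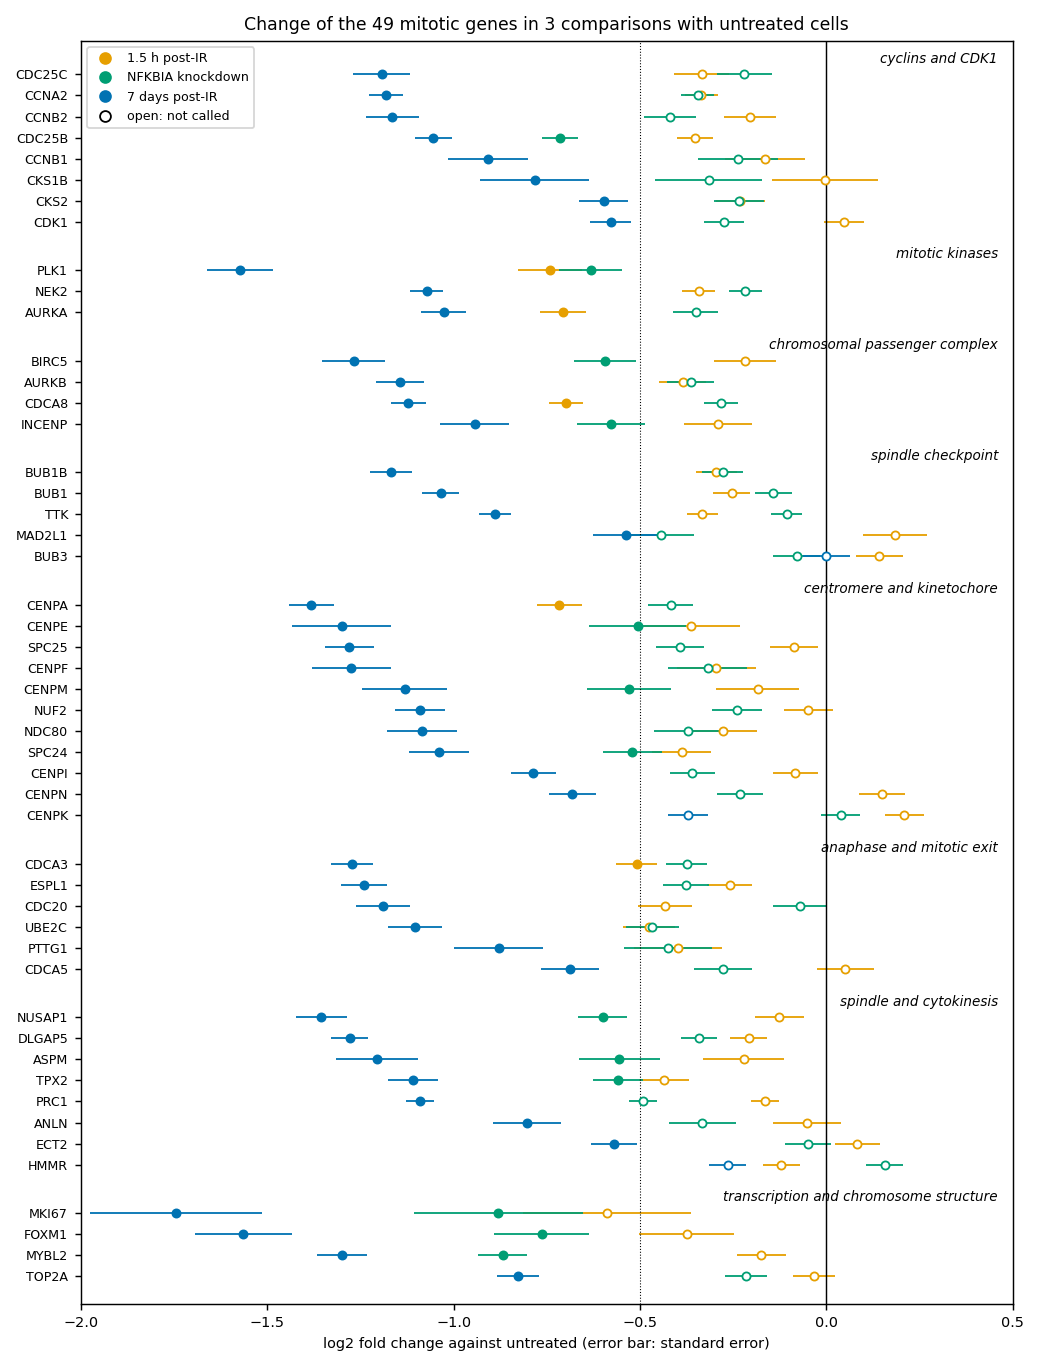
Log2 fold change against untreated cells, with its standard error, for each of the 49 mitotic genes at 1.5 h post-IR, at 7 days post-IR and in the NFKBIA knockdown, grouped by role. Filled circles were called, open circles were not, and the dotted line marks -0.5. The 7 days points of 46 genes are filled and lie to the left, and BUB3, CENPK and HMMR are the open ones.

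The libraries moved as groups. The median over the 49 genes of the log2 level relative to the untreated mean lay between -0.10 and 0.08 in the untreated libraries. It lay between -0.27 and -0.22 at 1.5 h, between -0.41 and -0.32 in the knockdown and between -1.11 and -1.02 at 7 days. No library of one group reached the range of the next. The summed level of the 49 genes was 9751 ± 986 CPM in untreated cells, 8242 ± 209 at 1.5 h, 7391 ± 174 in the knockdown and 4714 ± 60.7 at 7 days (SD, n = 5). Untreated replicate 5 had the highest sum, 11429.6 CPM, to which MKI67 contributed 1817.

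**Figure D3:**
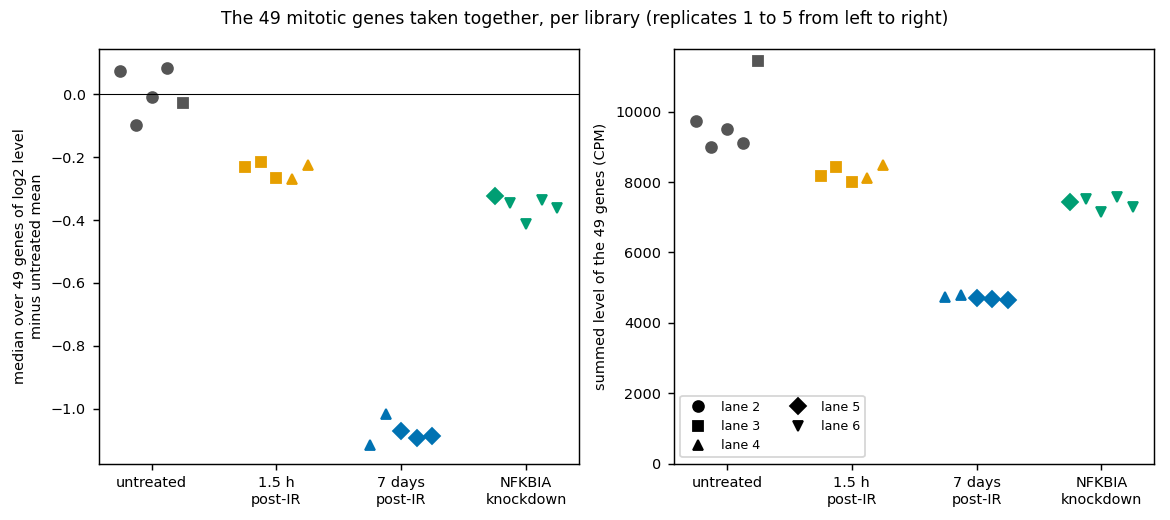
Each point is 1 library, with its symbol giving the sequencing lane. The left panel shows the median log2 level of the 49 genes minus the untreated mean, and the right panel their summed CPM. The groups do not overlap on the left, with the 7 days libraries between -1.11 and -1.02.

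Among the cyclins and their partners all 8 genes were called lower at 7 days, with a median of -0.98. CCNB1 encodes cyclin B1, the partner of CDK1 in mitotic entry. Its level was 527, 414, 462, 558 and 296 CPM in untreated replicates 1 to 5 and 242, 257, 239.9, 233 and 231 CPM at 7 days. At 1.5 h it was 425, 403, 373, 391 and 422 CPM, and in the knockdown 398, 389, 378, 381 and 369.7 CPM. Replicate 5, the lowest untreated library, lay below the knockdown and 1.5 h libraries but above all 7 days libraries. The log2 fold change was -0.91 ± 0.11 at 7 days (SE, adjusted p = 2.73e-07), -0.17 ± 0.11 at 1.5 h and -0.24 ± 0.11 in the knockdown; neither of the latter was called. With lane as a factor its 7 days change was -0.27 and not called, and the other values turned to 0.44 at 1.5 h and 0.49 in the knockdown. CDK1, the kinase itself, had the smallest fall of the group. Untreated libraries held 248, 204, 205, 247 and 219 CPM of it and 7 days libraries 145, 158, 148, 148 and 154 CPM. At 1.5 h the values were 235, 236, 223, 229 and 237 CPM, all inside the untreated range, and in the knockdown they were 193, 189, 182, 188 and 177 CPM. CDK1 fell by 0.58 ± 0.05 on the log2 scale at 7 days (adjusted p = 8.48e-09), and its change was 0.05 at 1.5 h. CDC25C, a phosphatase that activates CDK1, fell most, from 35.1 ± 4.41 to 15.4 ± 0.834 CPM (SD, n = 5), or 2.29-fold. CDC25B, the related phosphatase thought to act first, fell 2.08-fold at 7 days and was the one gene of this group called in the knockdown, from 129 ± 9.43 to 78.5 ± 2.21 CPM, log2 fold change -0.71 ± 0.05 (adjusted p = 4.07e-10). CCNA2 and CCNB2, the cyclins A2 and B2, fell 2.27-fold and 2.24-fold at 7 days. The small CDK-binding proteins CKS1B and CKS2 fell 1.72-fold and 1.51-fold. For CKS1B the value rested on the untreated libraries other than replicate 5, which had 14.1 CPM against 26.9 to 36.8 in the others and below the 7 days range. With lane as a factor its change at 7 days was 0.22, and that of CKS2 was -0.48 and not called. CKS1B has 6 annotated pseudogenes, with which reads may be shared.

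PLK1, a polo-like kinase of the centrosome and kinetochore, fell most of the 3 mitotic kinases and was called in all 3 comparisons with untreated cells. The untreated libraries held 144, 123, 138, 146 and 196 CPM. The values were 95.4, 88.1, 80.4, 85.4 and 96.8 CPM at 1.5 h, 100.2, 99.8, 94.6, 91.7 and 95.1 CPM in the knockdown and 52.2, 50.1, 49, 50.9 and 48.7 CPM at 7 days. All libraries of the other 3 groups lay below every untreated one, and the 7 days libraries below all others. The log2 fold change was -0.74 ± 0.09 at 1.5 h (adjusted p = 2.31e-06), -0.63 ± 0.09 in the knockdown (adjusted p = 5.65e-06) and -1.57 ± 0.09 at 7 days (adjusted p = 2.12e-12). Without untreated replicates 4 and 5 these were -0.60, -0.50 and -1.45. PLK1 overlaps exons of ERN2 on the opposite strand. AURKA, the Aurora A kinase of the spindle poles, was also called at 1.5 h. Its level went from 161, 132, 143, 159 and 126.1 CPM in untreated cells to 90.8, 91.6, 79.7, 85.7 and 93.6 CPM at 1.5 h and 71.8, 71.2, 71.2, 70.3 and 69.1 CPM at 7 days. In the knockdown it was 115, 115, 108, 114 and 113 CPM, below the untreated libraries but above the irradiated ones. The log2 fold change was -0.71 ± 0.06 at 1.5 h and -1.03 ± 0.06 at 7 days, and the direct difference between the 2 times was -0.32 ± 0.06 (adjusted p = 0.000108), too small for a call. NEK2, a kinase that helps to separate centrosomes, changed by -0.34 at 1.5 h, -0.22 in the knockdown and -1.07 at 7 days, and was called at 7 days only. AURKA and NEK2 have 2 annotated pseudogenes each.

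The chromosomal passenger complex, formed by Aurora B, INCENP, survivin (BIRC5) and borealin (CDCA8), was called lower at 7 days in all 4 of its subunits. AURKB, the kinase, had 50.7, 46, 49, 58.9 and 46.3 CPM in untreated cells and 22.6, 20.5, 23.8, 23.3 and 23.3 CPM at 7 days. At 1.5 h it had 41.5, 37.9, 36.7, 38.2 and 37.7 CPM and in the knockdown 41.4, 40.8, 37.5, 38.4 and 36.8 CPM, so that every library of these groups also lay below the untreated range. Its log2 fold change was -1.14 ± 0.06 at 7 days (adjusted p = 2.48e-12), -0.39 ± 0.06 at 1.5 h and -0.36 ± 0.06 in the knockdown, with adjusted p of 0.000147 and 0.000102 but no call at this size. BIRC5, which fell most, went from 211 ± 35.6 to 87.6 ± 4.09 CPM at 7 days (SD, n = 5) with a log2 fold change of -1.27 ± 0.08, and was also called in the knockdown at -0.59. INCENP, the scaffold, fell least, by 0.94 at 7 days, and was called in the knockdown at -0.58. That knockdown call was lost without untreated replicate 5, just short of the threshold at -0.50, and the one of BIRC5 with lane as a factor, at -0.17. CDCA8 was the only subunit called at 1.5 h. Its values were 119.7, 109, 114, 119 and 119 CPM in untreated cells and 73.1, 70.6, 68.7, 71.5 and 73.6 CPM at 1.5 h. At 7 days they were 53.4, 54.0, 54.4, 55.5 and 49.5 CPM, and in the knockdown 100.01, 102, 93.4, 91.6 and 90.2 CPM. The 4 groups did not overlap for CDCA8, and its change was -0.70 ± 0.05 at 1.5 h (adjusted p = 4.93e-10) and -1.12 ± 0.05 at 7 days.

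Of the 5 spindle checkpoint genes, 4 were called lower at 7 days and none in the other comparisons with untreated cells. By the adjusted p alone 3 were lower at 1.5 h and 4 in the knockdown. Of all 14992 genes tested, 1534 and 3157 were lower by that rule. BUB1, a checkpoint kinase of the kinetochore, had 232, 197, 223, 211 and 239.5 CPM in untreated cells and 108, 110.0, 106, 109 and 106 CPM at 7 days. It had 187, 195, 173, 182 and 186 CPM at 1.5 h and 203, 202, 189, 207 and 197 CPM in the knockdown, where the libraries overlapped the untreated ones. BUB1 had a log2 fold change of -1.03 ± 0.05 at 7 days (adjusted p = 2.02e-13), -0.25 ± 0.05 at 1.5 h and -0.14 ± 0.05 in the knockdown. BUB3, the adaptor that brings BUB1 and BUBR1 to the kinetochore, was not called in any comparison. Its untreated libraries held 262, 248, 237, 264 and 189 CPM and its 7 days libraries 238, 249.7, 239, 234 and 239 CPM. At 1.5 h it had 266, 268, 267, 264 and 260.5 CPM, and in the knockdown 228, 231, 228, 229 and 220.4 CPM. The 7 days values lay inside the untreated range, and the log2 fold change was -0.00 ± 0.06 (adjusted p = 0.993). BUB1B, which encodes BUBR1, fell most of the group, 2.25-fold, from 105 ± 10.7 to 46.9 ± 0.440 CPM. TTK, the kinase MPS1 that starts checkpoint signalling, fell 1.85-fold. MAD2L1, which encodes the checkpoint effector MAD2, fell 1.45-fold at 7 days, and its change of 0.18 at 1.5 h did not pass the test (adjusted p = 0.141). The 1.5 h change with lane as a factor was 0.69 and called higher, and without untreated replicate 5 it was 0.08. The MAD2L1 call at 7 days was lost with libraries scaled by their size alone, just short of the threshold at -0.50, without untreated replicate 1, at -0.47, and with lane as a factor, at -0.00.

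In the centromere and kinetochore group 10 of 11 genes were called lower at 7 days, with a median of -1.09. CENPA, the histone H3 variant that marks centromeres, had the largest fall. Its level was 86.3, 72.3, 76.7, 93.1 and 76.8 CPM in untreated cells and 53.4, 50.2, 45.8, 48.1 and 49.1 CPM at 1.5 h. It was 30.5, 31.4, 32.7, 31.6 and 29.4 CPM at 7 days and 63.2, 61.3, 58.8, 61.4 and 58.7 CPM in the knockdown. The 4 groups did not overlap, and the log2 fold change was -0.72 ± 0.06 at 1.5 h (adjusted p = 2.31e-08), -0.42 ± 0.06 in the knockdown and -1.38 ± 0.06 at 7 days (adjusted p = 5.92e-14). CENPA shares exon sequence on its strand with SLC35F6 in the annotation. The 4 subunits of the NDC80 complex, which binds the spindle microtubules, were all called lower at 7 days, with log2 fold changes of -1.08 for NDC80, -1.09 for NUF2, -1.04 for SPC24 and -1.28 for SPC25. At 1.5 h their changes were -0.28, -0.05, -0.39 and -0.09, none of them called. The 7 days call of NDC80 was lost with lane as a factor, at -0.48. CENPE, a kinesin of the kinetochore, and CENPF, a large protein of its outer layer, fell 2.46-fold and 2.42-fold at 7 days. The inner kinetochore genes CENPM, CENPI and CENPN fell 2.19-fold, 1.72-fold and 1.60-fold, while CENPK of the same assembly was not called. The call of CENPN was lost with lane as a factor, at -0.38. CENPK had 36.4, 36.6, 34.9, 37.0 and 30.2 CPM in untreated cells and 28.1, 25.9, 27.3, 26.0 and 28.2 CPM at 7 days. At 1.5 h it had 39.1, 41.6, 41.1, 39.1 and 41.7 CPM, above every untreated library, and in the knockdown 34.6, 35.5, 36.4, 38.2 and 35.4 CPM. Its log2 fold change was -0.37 ± 0.05 at 7 days and 0.21 ± 0.05 at 1.5 h. In the knockdown CENPM, SPC24 and CENPE were called, with -0.53, -0.52 and -0.51, all close to the threshold. These calls depended on single libraries. CENPM was at -0.44 without untreated replicate 4, SPC24 at -0.45 without the same library, and CENPE at -0.31 without untreated replicate 5. Each was lost under at least 4 of 20 alternatives, and CENPM was at 0.15 with lane as a factor.

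All 6 genes of anaphase and mitotic exit were called lower at 7 days. CDC20, which activates the anaphase-promoting complex and is the target of the checkpoint, had 274, 217, 246, 282 and 231 CPM in untreated cells and 104, 117, 108, 112 and 107 CPM at 7 days. It had 207, 177, 161, 185 and 195 CPM at 1.5 h and 249, 252, 236, 227 and 225 CPM in the knockdown. The 1.5 h libraries lay below the untreated ones, and the knockdown libraries lay among them. For CDC20 the log2 fold change was -1.19 ± 0.07 at 7 days (adjusted p = 9.95e-12), -0.43 ± 0.07 at 1.5 h (adjusted p = 0.000181) and -0.07 ± 0.07 in the knockdown (adjusted p = 0.455). CDCA3, a mitotic entry factor, fell most at 7 days, 2.42-fold, and was called at 1.5 h at -0.51 ± 0.06, at the edge of the threshold, a call that 8 of 21 alternatives lost, among them leaving out untreated replicate 4 (-0.49) or 5 (-0.49). ESPL1 encodes separase, the protease that cuts cohesin, and fell 2.36-fold at 7 days. PTTG1 encodes securin, which holds separase inactive, and fell 1.84-fold. UBE2C, the ubiquitin-conjugating enzyme of the anaphase-promoting complex, fell 2.15-fold. CDCA5 encodes sororin, which protects cohesion, and fell least, 1.61-fold, with a change of 0.05 at 1.5 h. Its 7 days call was lost with lane as a factor, at -0.32.

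Of 8 genes of the spindle and cytokinesis, 7 were called lower at 7 days. NUSAP1, a microtubule-binding protein of the spindle, had the largest fall, from 207 ± 28.9 to 80.9 ± 2.32 CPM (SD, n = 5), or 2.56-fold. At 1.5 h its change was -0.13, and in the knockdown it was called at -0.60 ± 0.07 (adjusted p = 3.95e-07). All 20 alternatives with the same fold threshold kept that call. TPX2, the activator of Aurora A on the spindle, and ASPM, a spindle pole protein, were also called in the knockdown at -0.56 and -0.56. Both calls were lost without untreated replicate 5, at -0.48 and -0.43. DLGAP5, which stabilises spindle fibres, fell 2.43-fold at 7 days. PRC1, which bundles microtubules of the central spindle, fell 2.13-fold. The cytokinesis genes ANLN, which encodes anillin, and ECT2, which activates RhoA at the cleavage site, fell 1.74-fold and 1.48-fold. HMMR, a spindle and hyaluronan-binding protein, was the exception. It had 97.2, 86.2, 83.1, 82.5 and 84.4 CPM in untreated cells and 73.3, 73.9, 72.4, 71.9 and 69.2 CPM at 7 days. At 1.5 h it had 79.5, 81.0, 82.0, 75.1 and 81.0 CPM and in the knockdown 94.6, 94.2, 91.1, 105 and 98.2 CPM. Its 7 days libraries lay below all untreated ones, with a log2 fold change of -0.26 ± 0.05, and its knockdown change was 0.16 ± 0.05 (adjusted p = 0.0152). HMMR overlaps HMMR-AS1 on the opposite strand, and whether reads were counted by strand is not stated, so reads of the antisense RNA may be included. TTTGAA occurs at 2 places in its promoter window above.

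The 4 genes of transcription and chromosome structure had the largest median fall of the role groups at 7 days, -1.43, and all were called lower. FOXM1, the forkhead factor of the G2 and mitosis programme, had 358, 326, 367, 323 and 637 CPM in untreated cells and 138, 139, 137, 136 and 130.3 CPM at 7 days. It had 317, 311, 285, 314 and 322 CPM at 1.5 h and 245, 246, 231, 230.2 and 232 CPM in the knockdown. Replicate 5 was far above the other untreated libraries, which lay between 323 and 367 CPM. FOXM1 had a log2 fold change of -1.56 ± 0.13 at 7 days (adjusted p = 1.17e-09) and -0.76 ± 0.13 in the knockdown (adjusted p = 6.65e-05). Without replicates 4 and 5 it was -1.39 and -0.58, both still called. MKI67 encodes Ki-67, the protein used to stain cycling cells. Its untreated values were 657, 768, 801, 434 and 1817 CPM, the widest spread of any of the genes, and its 7 days values were 279, 255, 265, 273 and 264 CPM. At 1.5 h it had 531, 619, 612, 593 and 620.1 CPM and in the knockdown 461, 501, 466, 531 and 471 CPM. The 1.5 h and knockdown libraries lay within the untreated range, and the 7 days libraries lay below all others. The log2 fold change was -1.74 ± 0.23 at 7 days (adjusted p = 1.23e-06), -0.59 ± 0.23 at 1.5 h (adjusted p = 0.0669) and -0.88 ± 0.23 in the knockdown (adjusted p = 0.00380). Without untreated replicate 5 alone the knockdown value was -0.47 and no longer called, and without replicates 4 and 5 it was -0.63 and called. The 7 days value without both was -1.50. At 1.5 h its change was -0.17 without replicate 5 and -1.64, and called, within lane 3. MYBL2 encodes B-MYB, which joins MuvB in S phase. Its knockdown change of -0.87 ± 0.07 from 291 ± 33.5 to 159 ± 7.23 CPM was a call that all 20 alternatives with the same fold threshold kept. TOP2A, the topoisomerase that untangles chromosomes, had 953, 959, 949, 780.2 and 876 CPM in untreated cells and 531, 518, 499.8, 493 and 503 CPM at 7 days. It had 804, 924, 918, 867 and 903 CPM at 1.5 h and 767, 791, 743, 826 and 765 CPM in the knockdown, and both sets overlapped the untreated libraries. TOP2A fell by 0.83 ± 0.06 on the log2 scale at 7 days (adjusted p = 5.88e-11), the smallest change of this group, and its change at 1.5 h was -0.03.

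**Figure D4:**
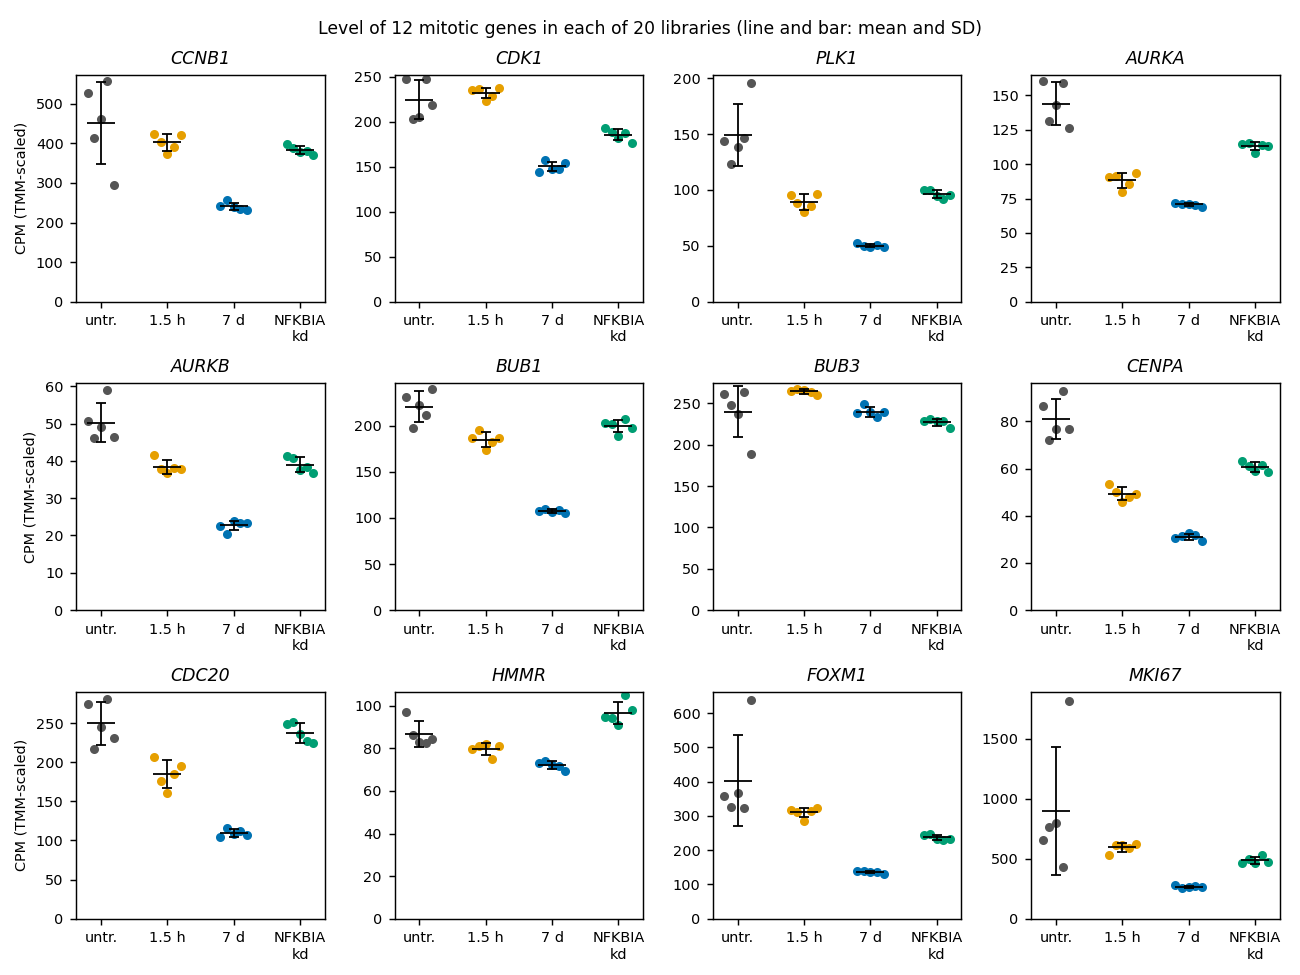
Level in TMM-scaled CPM of 12 mitotic genes in every library, with the mean and SD of each group as black lines. Each vertical axis starts at 0 and has its own scale. The 7 days libraries lie below the untreated ones for all 12 genes except BUB3, and untreated replicate 5 is the single high point for FOXM1 and MKI67.

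The 2 irradiated groups were also compared directly, so that the fold changes do not rest on the untreated libraries. From 1.5 h to 7 days 43 of the 49 genes (87.8%) were lower and none higher, where 12.6% of all genes were lower and 16.8% higher, with a median of -0.76. No gene was higher at an unadjusted p under 0.05 or in DESeq2, here or between 7 days and the knockdown. The 7 days libraries lay below the 1.5 h libraries for all 49 genes (lower without overlap for 29.9% of all genes). The 6 genes not called were BUB3, HMMR, AURKA, CKS2, CDCA8 and PTTG1. For AURKA and CDCA8 the larger portion of the log2 change was already present at 1.5 h, -0.71 of -1.03 and -0.70 of -1.12. For PLK1 and CENPA the direct differences were -0.83 ± 0.09 and -0.66 ± 0.06, after changes of -0.74 and -0.72 at 1.5 h. NUSAP1 and SPC25 had changes of -0.13 and -0.09 at 1.5 h. The largest direct differences were those of NUSAP1 (-1.23 ± 0.07), SPC25 (-1.19 ± 0.07), FOXM1 (-1.19 ± 0.13), MKI67 (-1.16 ± 0.23) and MYBL2 (-1.12 ± 0.07).

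The 7 days libraries were lower than the NFKBIA knockdown for 34 of the 49 genes (69.4%) and higher for none, where 9.89% of all genes were lower and 15.8% higher, with a median of -0.67. The 7 days libraries lay below all knockdown libraries for 47 genes (30.1% of all genes). CDC20 showed the largest difference, -1.12 ± 0.07 (adjusted p = 3.32e-11), with a knockdown change of -0.07 against untreated cells. At the other end BUB3 differed by 0.08 ± 0.06, MAD2L1 by -0.09 ± 0.09 and CDK1 by -0.30 ± 0.05, none of them called. In lane 5, which both groups shared, 3 libraries at 7 days and 1 of the knockdown gave a median of -0.75.

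Changes were also set against the CHR letters of the promoter windows. At 7 days 29 of the 30 genes with TTTGAA or TTCGAA in the window were called lower (median change -1.11), and so were 10 of the 11 without (median change -1.05). HMMR and CENPK were the exceptions of each set. At 1.5 h the medians were -0.22 with the letters and -0.34 without, and in the knockdown -0.33 and -0.36. No test was made of these differences.

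Levels of different genes were compared per length, as CPM per 1000 bases of the gene length given in the table. In untreated cells CKS2 was highest at 209 ± 26.8, followed by CCNB1 at 176 ± 40.4, TOP2A at 140.4 ± 11.9 and CDC20 at 123 ± 13.6 (SD, n = 5). Neighbours in this order overlapped within 1 SD of each mean. The lowest were CENPK at 8.12 ± 0.655, CENPI at 10.6 ± 0.714, CDC25C at 11.5 ± 1.45 and CKS1B at 11.7 ± 3.57, of which the last 3 overlapped in the same way. At 7 days CKS2 was still highest at 138 ± 1.99, then CCNB1 at 94.1 ± 3.91, TOP2A at 79.1 ± 2.36 and BUB3 at 74.9 ± 1.82, of which TOP2A and BUB3 overlapped. CDC25C was then the lowest, at 5.06 ± 0.274. Within the NDC80 complex, whose 4 subunits come together in equal number, the untreated levels per length were 37.5 ± 3.68 for SPC25, 32.6 ± 6.44 for NDC80, 24.4 ± 2.99 for NUF2 and 14.2 ± 2.15 for SPC24.

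Related genes outside the 49 were counted in the same way, and their shares are to be read against 14.4% of all genes lower and 16.7% higher at 7 days, and 7.53% and 5.18% in the knockdown. Of 29 other kinetochore and centromere genes, 19 (65.5%) were called lower at 7 days and none higher. KNL1, the kinetochore scaffold that recruits BUB1 and BUB3, had the largest fall at -1.24 ± 0.12. HJURP, the chaperone that loads CENPA, was the one gene of this list called at 1.5 h, with -0.87 ± 0.04 (adjusted p = 7.85e-12), and had -0.80 ± 0.04 at 7 days. CENPT, a DNA-binding protein of the inner kinetochore, had the largest rise of the list at 7 days, 0.32 ± 0.07 (not called), and was called higher in the knockdown at 1.48 ± 0.07 (adjusted p = 6.12e-13), against 3 genes called lower there. Of 18 cohesin and condensin genes 14 (77.8%) were lower at 7 days, with NCAPH, a condensin subunit, at -1.28 and ESCO1, a cohesin acetyltransferase, at 0.17 (not called).

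Of 17 genes of the anaphase-promoting complex 6 (35.3%) were lower and 1 (5.88%) higher at 7 days, with a median of -0.21. UBE2S, its chain-elongating enzyme, had the largest fall at -1.22, and the subunit ANAPC13 was the gene called higher at 0.55. ANAPC15 was called lower both at 7 days (-1.09) and in the knockdown (-0.87). Among 19 replication and S phase genes 12 (63.2%) were lower at 7 days, led by GINS2 of the replicative helicase at -1.31. CCNE2, which encodes cyclin E2, was the only gene of that list called at 1.5 h, where it was higher at 0.67 ± 0.07 (adjusted p = 1.21e-06). Of the DREAM, MuvB and RB-E2F regulators 5 of 18 (27.8%) were lower at 7 days, with E2F2 at -1.49, E2F8 at -1.22, E2F1 at -0.93, LIN9 at -0.72 and RBL1 at -0.71. E2F3 had the largest rise, 0.29, not called, and E2F5 was called higher in the knockdown at 0.55, against 2 genes of the list called lower there.

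Of 9 brakes on CDK1, 5 (55.6%) were called lower and 3 (33.3%) higher at 7 days. CDKN1A, which encodes p21, was higher at 1.5 h by 1.61 ± 0.05 and at 7 days by 1.86 ± 0.05 on the log2 scale (adjusted p = 5.86e-15 and 6.38e-17), from 225 ± 17.2 CPM in untreated cells to 816 ± 13.3 CPM at 7 days. In the knockdown its change was 0.21, not called. GADD45A, a stress protein that can inhibit CDK1, was called higher in all 3 comparisons, at 1.26 at 1.5 h, 1.58 at 7 days and 0.87 in the knockdown. BTG2, an antiproliferative p53 target, was higher at 1.5 h (1.89) and 7 days (1.25). CDKN1B, which encodes p27, was instead lower at 1.5 h (-0.76) and had the largest fall of this list at 7 days (-1.13). PKMYT1, which phosphorylates CDK1 and inhibits it, and GADD45B were lower at 7 days and in the knockdown, with -0.85 and -0.65 for PKMYT1 and -0.91 and -0.58 for GADD45B. SFN, the 14-3-3σ protein, was called lower in the same pair of comparisons, just past the size required at 7 days, with -0.50 and -1.03. CDKN1C, which encodes p57, was lower at 7 days (-0.75), and WEE1 was not called (-0.47).

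**Figure D5:**
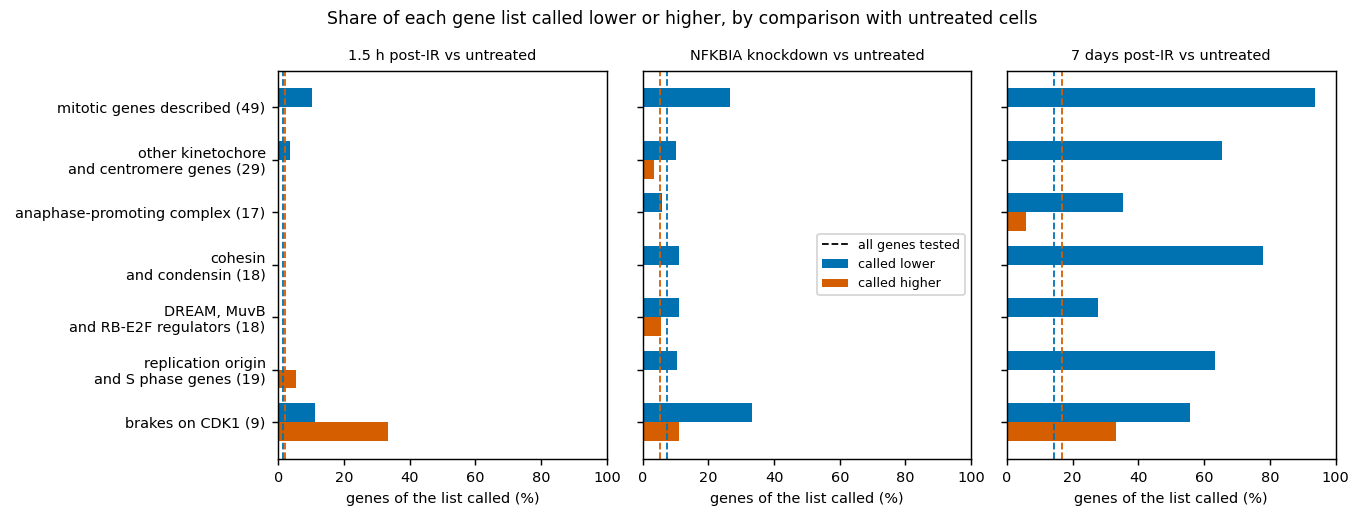
Share of each gene list called lower (blue) or higher (orange) than in untreated cells, in percent, with the number of genes tested in brackets and the share over all genes tested as dashed lines. At 7 days the mitotic genes reach 93.9% lower, above the other lists, and at 1.5 h the brakes on CDK1 have the largest share called, 33.3% higher and 11.1% lower.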

How the data were processed

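RNA was extracted from U2-OS cells with Trizol, and stranded mRNA libraries were made from it, per the methods. The submitters' processing notes name bcl2fastq, Trimmomatic and STAR 2.4.2a and the genome build hg19. The annotation, the counting tool and the setting for strand are not given in the sources used here. The authors deposited raw read counts per gene without normalization, with gene lengths and symbols, for 20314 genes in 20 libraries, of which 1679 genes had no symbol. Reads of overlapping genes and pseudogenes may be mixed. The libraries are named quintuplicates, and p values measure the spread between them.

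The counts entered edgeR 4.0.16 (R 4.3.3). Genes were filtered by filterByExpr (minimum count 10), scaled by TMM and fitted by 1 quasi-likelihood model of all 20 libraries with a term per group. This left 14992 genes, over which the Benjamini-Hochberg adjustment was made. A call required an adjusted p under 0.05 and a log2 fold change over 0.5 in size. Standard errors came from the F statistic. An exact permutation test of log2 CPM (prior count 2) served for single genes. Levels per length are CPM divided by gene length in units of 1000 bases. The script was tested on counts simulated for the untreated and 7 days groups, with no lane effect and no library set apart. Precision is set by the depth of 22535659 to 40390961 counts and by 5 libraries per group.

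The 49 genes, their 8 role groups and the other lists were chosen with earlier results of these data known. Values in every library were given for CCNB1, CDK1, PLK1, AURKB, BUB1, BUB3, CENPA, CDC20, FOXM1, MKI67 and TOP2A, and named by rule were the genes of largest and smallest change in each role group at 7 days, those called at 1.5 h, up to 10 called in the knockdown by size, the largest rise and fall of each other list with any gene called against its list's direction, NFKBIA and CDKN1A. Other genes named, and the values per library of AURKA, CDCA8, HMMR and CENPK, were chosen after their values were seen. Promoter windows came from RefSeq (GRCh38.p14), and gene overlaps from the exons of GENCODE 29, which may differ from the annotation of the counts. The alternatives were RLE and upper-quartile factors, library size alone, DESeq2 1.42.0, no filter, at least 10 counts in every library, only the groups compared, lane or replicate number as a factor, other fold thresholds and leaving out each library. The fit without untreated replicates 4 and 5 and the fits within single lanes were added after seeing the data. Figures were drawn with matplotlib 3.10.9.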

Additional observations from a re-analysis of the deposited data

Results flagged for a closer look

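In the direct contrast of the 7 days and 1.5 h libraries, 43 of the 49 mitotic genes were called, all 43 lower at 7 days. A call here needed both the adjusted p of edgeR's quasi-likelihood test and the fold threshold. Of all genes tested, 12.6% were called lower and 16.8% higher. By the adjusted p alone 48 of the 49 were lower and none higher, against 4332 lower and 4799 higher of all 14992 genes.

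Single libraries far from the other 4 of their group, by Dixon's criterion at 5 libraries, were found 11 times in 196 groups of libraries tested, where chance flags about 1 in 20. In the untreated group they were replicate 5 with a high level of MKI67 (1817 CPM), FOXM1 (637 CPM), TPX2 (506 CPM) and CENPE (252 CPM), replicate 4 with a low level of ESPL1 (121 CPM) and replicate 1 with a high level of HMMR (97.2 CPM). At 7 days they were replicate 4 with a low level of ECT2 (74.8 CPM), replicate 2 with a high level of NDC80 (57.8 CPM) and replicate 1 with a low level of UBE2C (55.1 CPM). At 1.5 h replicate 2 had a high level of TTK (49.9 CPM), and in the knockdown replicate 5 had a low level of BUB3 (220.4 CPM). Of the 11, 4 thus fell on untreated replicate 5, which also stood apart over all genes.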

How the results depend on the processing

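Under every alternative the 7 days comparison gave between 39 and 48 of the 49 genes called lower, except at a log2 fold threshold of 1 (32), and none called higher. With lane as a factor the knockdown median was -0.26 and the 7 days against knockdown median -0.74 (within lane 5 -0.75). Library size alone gave a knockdown median of -0.30 and 8 genes lower. With lane as a factor 15 genes were lower and 2 higher at 1.5 h (within lane 3, 16 and 2) and 1 was higher in the knockdown. With lane in the fit 10 of the 49 changes turned sign at 1.5 h (10 within lane 3), 2 at 7 days (BUB3 and CKS1B) and 12 in the knockdown, most of them not called under either fit. Those called in one of the fits were CKS1B, to 0.98 at 1.5 h (0.97 within lane 3), 0.22 at 7 days and 0.80 in the knockdown (before -0.00, -0.78 and -0.32), and CENPM in the knockdown, to 0.15. These fits compare with untreated replicate 5 as the only untreated library in lane 3. The number of all genes called in these fits is not given here. The larger counts at 1.5 h therefore cannot be read as particular to the mitotic genes. With lane as a factor the 7 days call was also lost for CCNB1, CDCA5, CENPN, CKS2, MAD2L1 and NDC80, and the cause was not tested. A threshold of 1 left 0 lower at 1.5 h, 0 in the knockdown, 8 at 7 days against 1.5 h and 1 at 7 days against the knockdown. With no fold threshold 26 were lower and 1 higher at 1.5 h, and 42 and 1 in the knockdown. Of all 14992 genes tested, 1534 were lower and 1657 higher at 1.5 h by that rule. In the knockdown the all-gene counts were 3157 and 2921. 

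Leaving out each library in turn gave 45 to 46 lower at 7 days, 4 to 7 at 1.5 h, 10 to 16 in the knockdown, 43 to 44 at 7 days against 1.5 h and 34 to 35 against the knockdown. The knockdown count was lowest without untreated replicate 5 and highest without untreated replicate 2. Medians ranged from -1.12 to -1.08 at 7 days, from -0.28 to -0.23 at 1.5 h and from -0.37 to -0.34 in the knockdown. Same-numbered libraries did not deviate together (r from -0.25 to 0.12 over 30 pairs, 3 of 20 libraries correlating best with their own number). With the replicate number as a block 46, 5 and 12 genes were lower at 7 days, at 1.5 h and in the knockdown, where CENPE lost its call.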
